A study of Mus musculus with 10 samples.

Results

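Retinal ganglion cells are the output neurons of the retina, and their axons form the optic nerve. Here 10 genes used as markers or regulators of these cells were followed, namely Pou4f1, Pou4f2, Pou4f3, Isl1, Thy1, Sncg, Nefl, Nefm, Rbpms and Opn4. Their rows were found by symbol, and all 10 were present among the 20045 symbols of the deposited table, as 13 of its 25152 entries. Rbpms had 3 entries and Opn4 had 2, with identical values in each case. Mouse retinas were collected at the embryonic stage E17.5, which the labels write as E17, and on postnatal days 1, 7 and 15 (PN1, PN7, PN15), with at least 20 retinas per stage. Chromatin was immunoprecipitated with antibodies against histone H3 dimethylated at lysine 4 (H3K4me2) or trimethylated at lysine 27 (H3K27me3) and sequenced (ChIP-Seq). Each of the 4 stages had 1 library for each of the 2 marks, which gave 8 libraries. The methods of the study describe wild type C57BL/6j mice, whereas the labels name the Pde6b (rd1/rd1) strain, a rod degeneration mutant, for every library, so the genotype rests on the methods. Since no condition had a second library, no difference between stages could be compared with the spread between replicates, and no test was made.

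H3K4me2 is placed around the start sites of active genes and of genes poised for activity, while H3K27me3 is deposited by Polycomb complexes and is found at silent developmental genes. Ganglion cells are among the first neurons to leave the cell cycle in the retina, and rods, which are born mostly later, come to outnumber every other cell type. The libraries were made from whole retina, so a change in the share of cells that carry a mark and a change in the amount of mark per cell cannot be told apart.

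The value of each gene is its normalized occupancy, that is, the reads within 2.5 kb on either side of the transcription start site (TSS) relative to all mapped reads of the library. As the window has the same length for every gene, levels of 1 mark can be compared between genes. The value of 1 read could be recovered from the numbers themselves in 5 of the libraries, where an occupancy of 1 stood for between 1.06 and 3.2 reads. It could not be recovered for H3K4me2 at PN7 and PN15 or for H3K27me3 at E17.5, and 1 read per unit was assumed there. All intervals below are exact 95% counting intervals, which cover counting error only. Olfactory receptor genes, which the retina does not use, served as background, and the limit for each library was the 95th percentile of their 1053 entries. For H3K4me2 the limits lay between 1 and 8, and for H3K27me3 between 21 and 29. The sum of the occupancies over all entries, in which reads near several starts count more than once, was between 590366 and 1200594. Over all symbols the median H3K4me2 occupancy was 41, 27, 24 and 42 at the 4 stages in order of age, and the median of H3K27me3 was 11, 10, 9 and 10.

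The 200 bases upstream of the annotated start are shown for 4 members that stand for the range of base composition described further on. Sequences are from mm9, run 5′ to 3′ on the strand of the gene, and lie outside annotated exons. CG dinucleotides are in capitals. They number 37 in Pou4f1 (chr14:104867217-104867416), 14 in Pou4f2 (chr8:80960552-80960751), 6 in Thy1 (chr9:43851267-43851466) and 3 in Opn4 (chr14:35413329-35413528).
Pou4f1: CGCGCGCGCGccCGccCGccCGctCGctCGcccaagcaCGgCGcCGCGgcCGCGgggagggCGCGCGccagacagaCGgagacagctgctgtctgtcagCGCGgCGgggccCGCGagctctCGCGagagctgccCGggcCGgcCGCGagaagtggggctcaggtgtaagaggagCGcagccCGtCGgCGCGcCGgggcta
Pou4f2: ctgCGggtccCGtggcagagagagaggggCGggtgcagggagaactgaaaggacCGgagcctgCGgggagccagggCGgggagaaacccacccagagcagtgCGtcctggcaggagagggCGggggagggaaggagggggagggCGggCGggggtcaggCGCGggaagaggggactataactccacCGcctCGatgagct
Thy1: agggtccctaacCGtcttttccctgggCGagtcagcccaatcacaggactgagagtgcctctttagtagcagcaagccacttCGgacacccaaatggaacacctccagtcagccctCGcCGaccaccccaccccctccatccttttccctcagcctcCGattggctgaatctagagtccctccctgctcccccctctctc
Opn4: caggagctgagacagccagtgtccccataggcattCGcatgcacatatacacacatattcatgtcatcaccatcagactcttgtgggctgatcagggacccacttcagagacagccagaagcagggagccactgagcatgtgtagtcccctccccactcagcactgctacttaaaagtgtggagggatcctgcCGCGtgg

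The members lie on 5 mouse chromosomes, with 5 of the genes on chromosome 14. In the mm9 build with the GENCODE vM1 annotation, Pou4f1 is at chr14:104862737-104867216 on the minus strand, Pou4f2 at chr8:80956908-80960551 on the minus strand, and Pou4f3 at chr18:42554251-42555747 on the plus strand. Isl1 is at chr13:117088478-117099896 (minus), Thy1 at chr9:43851467-43856662 (plus) and Rbpms at chr8:34893116-35040313 (minus). The neurofilament genes are neighbours, with Nefl at chr14:68701920-68707152 (plus) and Nefm at chr14:68700647-68742903 (minus), and their annotated starts are 41 kb apart. The annotated end of Nefm reaches past the start of Nefl, so a long Nefm transcript lies over the window of Nefl. Sncg is at chr14:35183460-35187975 and Opn4 at chr14:35403804-35413328, both on the minus strand and 225 kb apart. The start of Mmrn2, an extracellular matrix gene on the opposite strand, lies 715 bp from that of Sncg, so both windows take up largely the same reads.

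Ganglion cell genes fell into 3 groups by their marks. The 3 Pou4f genes, Isl1, Thy1 and Nefl had H3K27me3 among the highest of all genes together with H3K4me2 above background. Nefm and Rbpms carried both marks above background with less H3K27me3 at E17.5 than these 6 genes, and Sncg and Opn4 had little of either. H3K27me3 was above the olfactory receptor limit in 8 of the 10 genes at every stage, against 24.3%, 24.8%, 24.3% and 19.3% of all symbols at the successive stages. The median H3K27me3 occupancy of the 10 genes was 267.5, 307.5, 242 and 104.5, which was 24.3, 30.8, 26.9 and 10.4 times the median of all symbols. H3K4me2 was above its limit in 10, 9, 9 and 8 genes, against 77.2%, 72%, 72.1% and 70.9% of all symbols. The median H3K4me2 level of the genes was 43.5, 28, 37.5 and 20.5, which was 1.06, 1.04, 1.56 and 0.488 times that of all symbols.

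**Figure D1:**
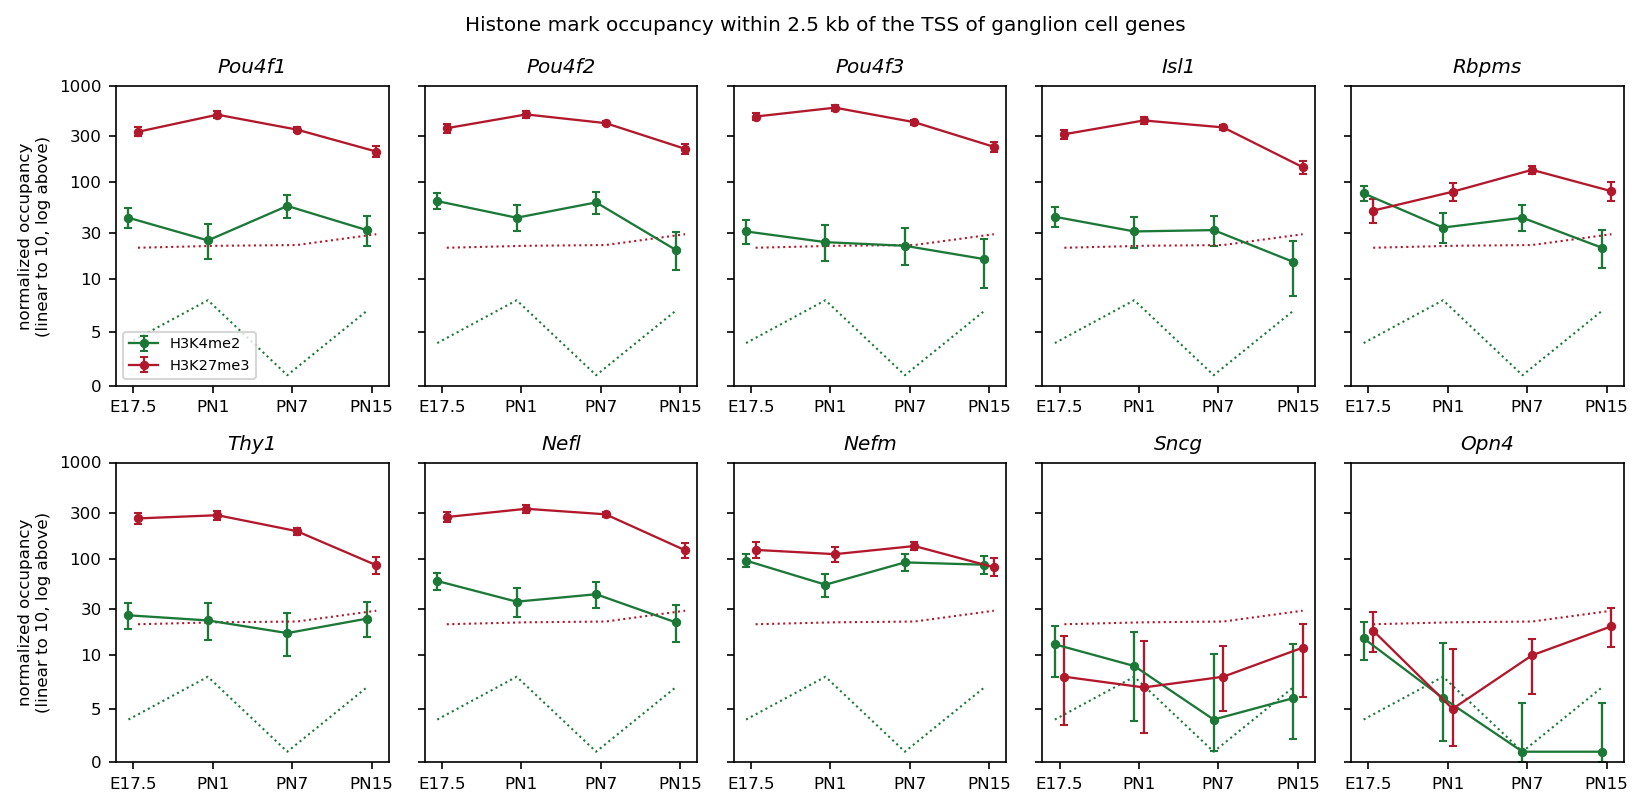
Normalized occupancy (vertical axis, linear up to 10 and logarithmic above) of H3K4me2 (green) and H3K27me3 (red) at 4 stages (horizontal axis) for the 10 genes. Points are single libraries, bars are 95% counting intervals, and dotted lines are the olfactory receptor limits of each mark; H3K27me3 lies above its dotted line in 8 genes and below it in Sncg and Opn4.

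Among the transcription factors, Pou4f1, Pou4f2 and Pou4f3 encode related POU homeodomain proteins, of which Pou4f2 is needed for the differentiation and survival of many ganglion cells. H3K27me3 at Pou4f1 was 335, 504, 353 and 209 from the youngest to the oldest stage. At Pou4f2 it was 365, 507, 412 and 223, and at Pou4f3 it was 482, 596, 421 and 234. All 3 genes thus had the highest H3K27me3 at PN1 and the lowest at PN15, where they still ranked in the top 1% of symbols, at percentiles 99, 99.2 and 99.3. Pou4f3 was the highest of the 10 genes at every stage. Its counting interval did not meet that of the next gene, Pou4f2, at E17.5 and PN1, whereas the intervals overlapped at PN7 and PN15.

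The H3K4me2 of the 3 Pou4f genes was far below their H3K27me3 in number. At Pou4f1 it was 43, 25, 57 and 32, with counting intervals of 16 to 37.1 at PN1 and 43.2 to 73.9 at PN7. At Pou4f2 it was 64, 43, 62 and 20, so the values of E17.5 and PN7 were alike and PN15 was the lowest. At Pou4f3 it was 31, 24, 22 and 16, and the intervals of neighbouring stages overlapped. Pou4f1 was the only one of the 10 genes with its highest H3K4me2 at PN7, as in 5.3% of all symbols, and the other 9 were highest at E17.5, the stage with the highest value for 24.9% of all symbols. The ratio of H3K27me3 to H3K4me2 was between 14.6 and 24.8 at Pou4f3, between 5.7 and 11.8 at Pou4f2 and between 6.19 and 20.2 at Pou4f1. The marks were precipitated with different antibodies, so such a ratio has meaning only beside that of another gene.

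Isl1 encodes a LIM homeodomain factor that acts with Pou4f2 in ganglion cells and is also used by amacrine and bipolar cells. Its H3K27me3 was 316, 439, 372 and 144, and its H3K4me2 was 44, 31, 32 and 15. Both marks were lowest at PN15, as at Pou4f2. From PN7 to PN15 H3K27me3 at Isl1 became 2.58-fold lower, the largest ratio of the 10 genes in that step, against 1.85-fold at Pou4f2 and 1.69-fold at Pou4f1.

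Rbpms encodes an RNA-binding protein found in nearly all ganglion cells, and it differed from the transcription factors. Its H3K4me2 was 77, 34, 43 and 21 at the 4 stages, while its H3K27me3 was 51, 80, 135 and 81. The ratio of H3K27me3 to H3K4me2 was 0.662, 2.35, 3.14 and 3.86, beside 5.7, 11.8, 6.65 and 11.2 at Pou4f2. From E17.5 to PN15 H3K27me3 was 1.59-fold higher, and Rbpms was the only gene of the 8 with H3K27me3 above the limit whose value at PN15 exceeded that at E17.5. Its counting interval of 38 to 67.1 at E17.5 overlapped slightly with that of PN15, 64.9 to 99.8, whereas the interval of the log2 ratio itself, 0.15 to 1.20, lay above 0.

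Thy1 encodes a surface glycoprotein of neurons that is widely used to label ganglion cells. H3K27me3 at Thy1 was 263, 284, 194 and 86, and H3K4me2 was 26, 23, 17 and 24. H3K4me2 thus stayed within overlapping counting intervals at all 4 stages while H3K27me3 at PN15 was 3.06-fold lower than at E17.5, the largest fall of the 10 genes. The ratio of H3K27me3 to H3K4me2 was 10.1, 12.3 and 11.4 at the first 3 stages and 3.58 at PN15, beside 7.18, 14.2, 11.6 and 9.6 at Isl1. Nefl, the light neurofilament subunit of axons, had 272, 331, 290 and 123 for H3K27me3, and both marks declined. Its H3K4me2 was 59, 36, 43 and 22.

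Nefm encodes the medium neurofilament subunit. Its H3K4me2 was 96, 54, 92 and 87, the highest of the 10 genes at each stage, and only at PN15 did the counting interval (69.7 to 107) not meet that of the next gene, Pou4f1 (21.9 to 45.2). H3K27me3 at Nefm was 124, 112, 136 and 82, and PN15 was 1.51-fold lower than E17.5. Although the starts of Nefl and Nefm are neighbours, H3K27me3 at E17.5 was higher at Nefl (241 to 306) than at Nefm (103 to 148) beyond counting error, and H3K4me2 at PN15 was higher at Nefm than at Nefl (13.8 to 33.3).

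Sncg, which encodes gamma-synuclein, and Opn4, which encodes the photopigment melanopsin of the light-sensitive ganglion cells, had no H3K27me3 above the olfactory receptor limit at any stage. H3K27me3 at Sncg was 8, 7, 8 and 12, and H3K4me2 was 13, 9, 4 and 6, the last of which was under the limit of 7. At the neighbouring Mmrn2 H3K4me2 was 12, 9, 4 and 4 while H3K27me3 was 6, 5, 6 and 12, and the reads of the overlapping windows cannot be assigned to either gene. H3K27me3 at Opn4 was 18, 5, 10 and 20, and H3K4me2 was 15, 6, 1 and 1. Only the H3K4me2 of E17.5 was above the limit at Opn4, and at PN15 its interval was 0.0253 to 5.57. With vomeronasal receptor entries as background 9 of the 10 genes, rather than 8, were above the H3K27me3 limit at E17.5 and at PN15. The gene gained was Opn4, at 18 and 20, just over the lower limits of 14.95 and 18. The share of all symbols above these lower limits was not counted.

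Changes between stages were taken as log2 ratios with 1 added to each value, relative to the median of all symbols, since that median itself moved. For H3K4me2 it moved by −0.42 from E17.5 to PN1, by −0.50 from PN1 to PN7 and by 1 from PN7 to PN15, but by only 0.13 between E17.5 and PN15. From E17.5 to PN15 the H3K4me2 of all 10 genes was lower relative to this median. The difference was 2-fold or more in 7 genes, against 12.8% of all symbols, and no gene was 2-fold higher, against 5.17%. The median relative change of the 10 genes was −1.32. Rbpms, with 77 and 21, had a relative log2 change of −1.96 with a counting interval of −2.75 to −1.33. For Pou4f2 the change was −1.76 (−2.58 to −1.11), for Isl1 −1.63 (−2.60 to −0.86), for Nefl −1.52 (−2.30 to −0.87) and for Pou4f3 −1.05 (−2.01 to −0.24). The values of Opn4, −3.13 (−9.44 to −1.39), and Sncg, −1.13 (−2.88 to 0.14), rested on few reads. Pou4f1 at −0.55 (−1.21 to 0.07), Nefm at −0.27 (−0.67 to 0.11) and Thy1 at −0.24 (−1.04 to 0.52) did not pass the 2-fold limit, and their intervals included 0. The intervals of Pou4f1 and Thy1 also included a 2-fold fall.

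Between neighbouring stages, most 2-fold differences in H3K4me2 relative to the median of all symbols were from PN7 to PN15. The PN7 library of this mark stood apart, with 19.5% of entries at 0 against 0.362% to 2.52% in the others and an olfactory receptor limit of 1 against 4 to 8, and both steps below that hold calls rest on it. The part of that library in these calls was not tested, whereas the comparison of E17.5 with PN15 does not use it. From E17.5 to PN1 no gene changed 2-fold relative to the median of all symbols, in a step where 13.7% of all symbols were 2-fold higher and 1.12% lower. From PN1 to PN7 Pou4f1, Pou4f2 and Nefm were 2-fold higher, against 13.7% of all symbols, and Opn4 was 2-fold lower, against 26.6%. Of the 3 higher genes 1 was left without the reference to the median and 1 with equal library totals, and the call of Opn4, at 6 and 1, had an interval that included 0 and neither value above the limit. From PN7 to PN15 8 of the 10 genes were 2-fold lower, with the exception of Thy1 and Sncg, against 17.1% of all symbols, and none was higher, against 15.9%. The 8 include Opn4, which was at 1 in both libraries (interval −7.29 to 5.29), and Nefm, at 92 and 87, and the number was 6 when symbols under background in both libraries were left out and the median was taken over the rest. The H3K4me2 of Pou4f2 went from 62 to 20 in this step, a relative change of −2.59 (−3.44 to −1.89) that placed it at percentile 0.22 of all symbols. As the median of all symbols rose by 1 in this step, the count depends on it: with no reference to that median 3 genes were 2-fold lower. The shares of all symbols given here are relative to that median and were not counted for the other settings. The median log2 change of the 10 genes without it was −0.63 from E17.5 to PN1, 0.15 from PN1 to PN7 and −0.62 from PN7 to PN15, so the first and last steps were then alike. In the same libraries H3K4me2 at 10 rod genes, among them Nrl, rose 2-fold or more from E17.5 to PN15 in 10 of 10, against 5.17% of all symbols. The median occupancy of these rod genes went from 10.5 to 106. The part of rod chromatin in the values of the ganglion cell genes was not tested.

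**Figure D2:**
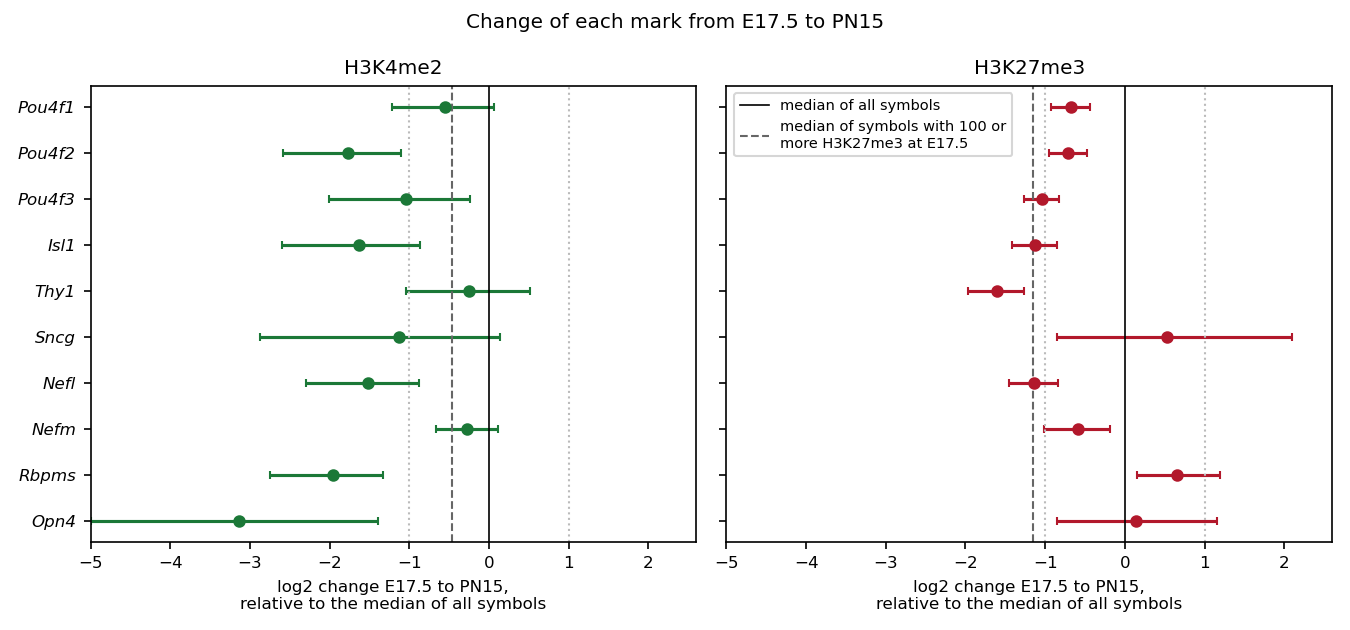
Log2 change from E17.5 to PN15 relative to the median of all symbols (horizontal axis) for each gene (vertical axis), H3K4me2 on the left and H3K27me3 on the right, with 95% counting intervals as bars. Solid lines mark the median of all symbols, dashed lines the median of the 1601 symbols with H3K27me3 of 100 or more at E17.5, dotted lines a 2-fold change; the bar of Opn4 for H3K4me2 goes on to −9.44, and all 10 points of H3K4me2 lie left of the solid line.

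H3K27me3 moved in a different order. From E17.5 to PN1 H3K27me3 was higher at 7 of the 10 genes and lower at 3, against 43% of all symbols that were lower, and 6 genes had their highest value at PN1, against 25.6% of all symbols. This rise was shared by other marked genes. The 1601 symbols with 100 or more at E17.5 had a median log2 change of 0.23, against 0.31 for the 7 members among them. The median of 11 amacrine genes went from 344 to 508 and that of 6 horizontal cell genes from 212 to 328.5. At Thy1, with 263 and 284, the interval of the change, −0.13 to 0.35, included 0. Only Opn4, at 18 and 5, changed 2-fold in this step and was lower, against 8.27% of all symbols, while no gene was 2-fold higher, against 5.77%. Both values of Opn4 were under the background limits. The rise at Pou4f1, from 335 to 504, was 0.59 on the log2 scale (0.39 to 0.79). From PN1 to PN7 1 gene, again Opn4, was 2-fold higher, against 8.44% of all symbols, and none was lower, against 9.33%. This call, at 5 and 10, was again under the limits, with an interval of −0.28 to 3.01. Rbpms came nearest to that limit with a relative change of 0.91 (0.58 to 1.26). From PN7 to PN15 Isl1, Thy1 and Nefl were 2-fold lower, against 9.7% of all symbols, and no gene was higher, against 15%. With equal library totals 0 were lower and 1 was higher. These 3 genes were above background in both libraries, but relative to the median of only the symbols above background 0 were 2-fold lower. From E17.5 to PN15 Pou4f3, Isl1, Thy1 and Nefl were 2-fold lower, against 16.1%, and none was 2-fold higher, against 12.2%. With equal library totals 1 was lower and 2 were higher. The shares of all symbols given here are relative to the median of all symbols and were not counted for the other settings. The median relative change of the 10 genes from E17.5 to PN15 was −0.69, but it was −0.16 with equal library totals and 0.46 relative to symbols with high H3K27me3, so its size and sign depend on the scaling and the reference.

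The ganglion cell genes were also read against other genes with much H3K27me3. Of all symbols 1601 had an H3K27me3 occupancy of 100 or more at E17.5, among them 7 of the 10 genes, all but Rbpms, Sncg and Opn4. The median log2 change of these symbols from E17.5 to PN15 was −1.16, with quartiles of −1.47 and −0.83. Of the 7 genes only Thy1, at −1.60, was below that median, at percentile 17.9, and the other 6 were above it, with Nefm at percentile 86.9. The changes of Pou4f1, −0.68, and Pou4f2, −0.71, lay at percentiles 83.4 and 82.3. For H3K4me2 the same symbols had a median log2 change of −0.33 between these stages. Here 5 of the 7 genes were below that median, and Pou4f2, Isl1 and Nefl were at percentiles 7.93, 11.1 and 13.3. For H3K27me3 Isl1 and Nefl were in the middle of these symbols, at percentiles 52.8 and 51.8. Among genes with high H3K27me3, Pou4f2, Isl1 and Nefl were thus low in their H3K4me2 change but not in their H3K27me3 change. This reference was chosen after the values were seen, and it selects symbols by a high value in the E17.5 library, from which the change is also measured, so part of the lower values at PN15 is built into it and the percentiles are only a description.

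The neurofilament genes could be followed further with Nefh, the heavy subunit, and Ina, the related alpha-internexin, from a list of 15 genes of ganglion cell axons, synapses and RNA binding. Nefh had the highest H3K27me3 of that list at E17.5. Its H3K27me3 went from 457 and 475 at E17.5 and PN1 to 262 at PN7 and 45 at PN15, while its H3K4me2 went from 26 and 26 to 70 and 80. Ina, named after its values were seen, had 308, 367, 234 and 90 for H3K27me3 and 37, 33, 45 and 87 for H3K4me2. Nefh and Ina thus gained H3K4me2 as H3K27me3 fell, with relative log2 changes in H3K4me2 of 1.45 and 1.08 from E17.5 to PN15. The H3K4me2 of Nefl declined over the same stages (−1.52), and that of Nefm was 96 at E17.5 and 87 at PN15. All 4 encode neuronal intermediate filaments that can assemble together, yet at PN15 their H3K27me3 was between 45 and 123 and their H3K4me2 between 22 and 87.

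**Figure D3:**
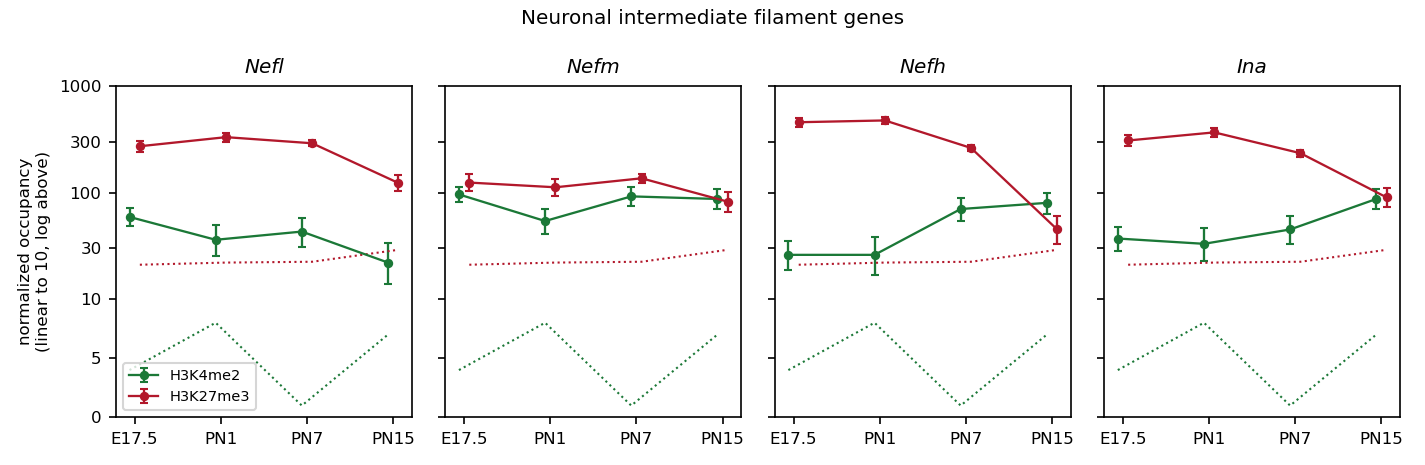
Normalized occupancy (vertical axis, linear up to 10 and logarithmic above) of H3K4me2 (green) and H3K27me3 (red) at 4 stages (horizontal axis) for Nefl, Nefm, Nefh and Ina, with 95% counting intervals as bars and olfactory receptor limits as dotted lines. At Nefh H3K27me3 falls from 457 to 45 and H3K4me2 rises from 26 to 80, whereas at Nefl both marks fall.

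In the whole list of axon, synapse and RNA-binding genes, 5 of 15 were 2-fold lower in H3K4me2 from E17.5 to PN15, against 12.8% of all symbols, 3 were 2-fold higher, against 5.17% (Nefh, Ina and Chrna6, the last named after its values were seen) and the median relative change was −0.81. For H3K27me3 5 of the 15 were 2-fold lower, against 16.1%, none was higher, against 12.2%, and 7 had 100 or more at E17.5, as did 1601 of all 20045 symbols. Tubb3, a neuronal tubulin, had the highest H3K4me2 of the list at PN15 (98), and Slc17a6, a vesicular glutamate transporter of ganglion cells, had the lowest (5) beside an H3K27me3 of 183. Chrnb3, a nicotinic receptor subunit, had the lowest H3K27me3 at E17.5 (10). The H3K4me2 of Rbpms2 at PN15 (90), named after its values were seen, lay close to that of Tubb3. A second list held 13 further regulators of ganglion cells. Of these 7 were 2-fold lower in H3K4me2, against 12.8% of all symbols, none was higher, against 5.17%, and the median relative change was −1.01. In H3K27me3 3 were 2-fold lower and 1 was higher, near the 16.1% and 12.2% of all symbols, and 7 of the 13 had 100 or more at E17.5. Irx2, a homeodomain factor, had the highest H3K27me3 of the list at E17.5 (383). Myt1, a zinc finger factor, had the highest H3K4me2 at PN15 (115). Tbr1 (377) and Eomes (376) lay close to Irx2, and Sox4 (112) lay close to Myt1, all named after their values were seen.

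Genes of other early neurons, the amacrine and horizontal cells, were set beside them. Of 11 amacrine genes 6 were 2-fold lower in H3K4me2, against 12.8% of all symbols, and none was higher, against 5.17%. Their median relative change was −1.13, and 7 had H3K27me3 of 100 or more at E17.5. Of 6 horizontal cell genes 2 were 2-fold lower, against the same 12.8%, none was higher, and the median was −0.85. The median of the ganglion cell genes, −1.32, was the lowest of these neuronal lists, but that of 4 vessel genes was lower, at −1.50, with 2 of them 2-fold lower. The medians of 4 astrocyte and 4 pigment epithelium genes were −0.34 and −0.26. Of the 4 vessel genes 2 were above the H3K4me2 limit at E17.5 and 1 at PN15, as was also so for the 4 pigment epithelium genes. The medians of the vessel and pigment epithelium lists thus rest mostly on values near background. The lists were short, and the differences between them were not tested. Of the 10 rod genes 0 had H3K27me3 of 100 or more at E17.5, beside 1601 of all 20045 symbols.

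The 10 genes differed in base composition around the start. The number of CG dinucleotides (CpG) within 2.5 kb of the annotated start was counted in mm9 for them and for 19347 symbols with an annotated locus, whose median was 103 with quartiles of 58 and 144. Pou4f1 had 362, at percentile 99.9, followed by Pou4f2 with 242, Nefm with 231, Rbpms with 213, Nefl with 192, Pou4f3 with 174 and Isl1 with 157. These 7 were among the 20% of symbols with the most CpG. Thy1 had 86, Sncg 81 and Opn4 49, all below the median, as the upstream stretches shown above let one see for Thy1 and Opn4. Of all symbols, H3K27me3 of 100 or more at E17.5 was found at 0.439% in the 20% of symbols with the fewest CpG and at 17.3% in the 20% with the most. Thy1 was the exception among the 10 genes, with few CpG and an H3K27me3 of up to 284. Of the 1568 annotated symbols with 100 or more at E17.5, 10.4% had no more CpG than Thy1.

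**Figure D4:**
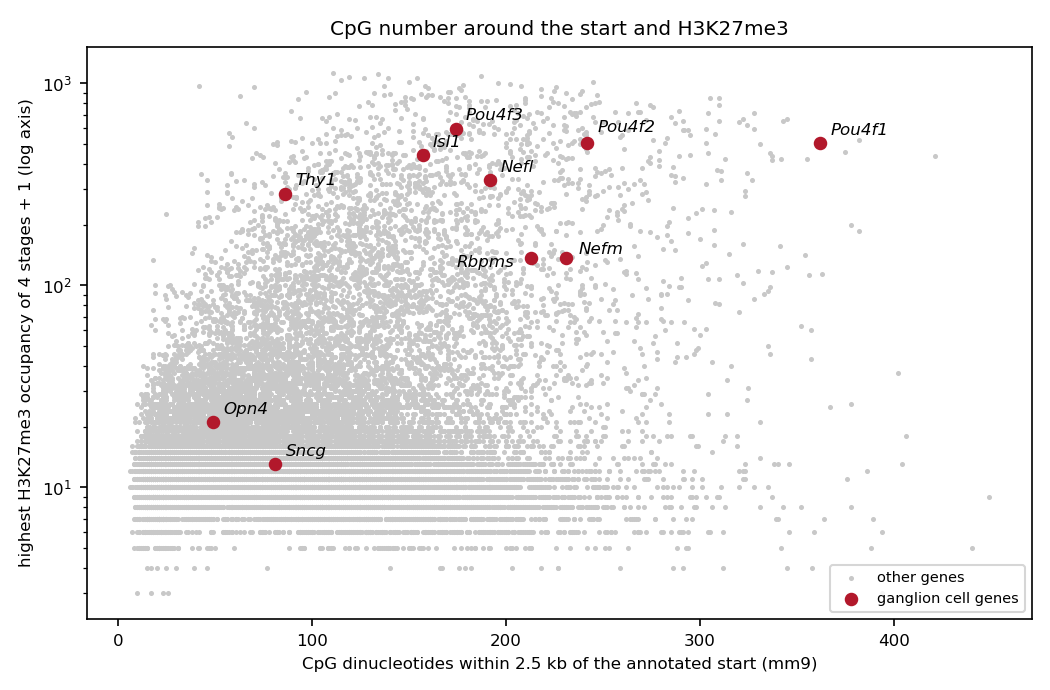
Number of CpG dinucleotides within 2.5 kb of the annotated start (horizontal axis) and the highest H3K27me3 occupancy of the 4 stages plus 1 (vertical axis, logarithmic), with the 10 ganglion cell genes in red and other symbols in grey. The 7 genes with 157 CpG or more all have H3K27me3 above 100 at their highest stage, Sncg and Opn4 are low in both, and Thy1 has 86 CpG and a highest occupancy of 284.

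Short motifs were searched on both strands in the 300 bases from 250 before to 50 after the annotated start. TAATTA, a core that homeodomain factors bind, was in none of the 10, against 4.45% of all promoters of that length. CATATG, an E-box form, was in none, against 2.9%, and CAGCTG, another E-box form that does not overlap with it, was in Isl1, Nefm and Pou4f1, against 15.3%. A match is only a match of letters, and no match says only that these letters are not in the window.

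Over the 8 libraries the genes most like each member were found by Euclidean distance of the log2 values. The choice of measure decides most of these names, since of the 30 symbols found 5 were shared when likeness was taken as correlation and 9 with the values as deposited. For Pou4f1 they were Prdm6, Sall4 and Rfx4, for Pou4f2 Vax1, Gsc and Gata6, and for Pou4f3 Foxd3, Sim1 and Nkx3-2. The smallest distance was that of Pou4f2 and Vax1 (0.32), and at Vax1 H3K4me2 was 67, 36, 61 and 20 while H3K27me3 was 341, 535, 380 and 238. Isl1 was nearest to Col14a1, Bmp4 and Tbx5, Nefl to Kcnj8, Spata18 and Dlx3, and Thy1 to 6330527O06Rik and C2cd4a, among others. Nefm was nearest to Bhlhe22, Nfia and Fam155a, and Rbpms to Fam181b, Zfhx3 and Fgf10. Sncg was nearest to Cmtm5, Ddc8 and Mmrn2, the last of which shares its reads. Opn4, whose few reads leave its pattern uncertain, was nearest to Fam180a, Nipsnap3a and Cd300lg at distances of 1.35 to 1.38. Among the members themselves, Pou4f1 ranked 44th of all other symbols by likeness to Pou4f2, and Nefl ranked 29th by likeness to Isl1. No member was among the 3 symbols nearest to another.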

How the data were processed

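H3K4me2 and H3K27me3 ChIP-Seq libraries of mouse retina at E17.5, PN1, PN7 and PN15 were examined, 1 for each mark and stage. Reads had been mapped with Bowtie 0.12.4 to mm9 by the authors. The deposited values are scores, namely reads within 2.5 kb of each RefSeq TSS that the authors normalized to total mapped reads and rounded to whole numbers. No count model was fitted, as these scores are not counts. For H3K27me3 at PN7 the header adds a letter b to the mark. Of the 10 samples 2 had no column (H3K4me2 of rd1/rd1 retina at PN30 and the anti-GFP control) and were not analysed here. Catalogue numbers of both antibodies are exchanged between labels and methods, and sample titles decided the mark.

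The members and lists were chosen with earlier results of these data known. Named were all 10 members, for each the 3 nearest symbols, and from the lists of ganglion cell regulators and of axon, synapse and RNA-binding genes those with the highest and lowest H3K27me3 at E17.5 and H3K4me2 at PN15. A few items that this rule covers are not reported here. Marker lists of rods, amacrine cells, horizontal cells, astrocytes, vessels and pigment epithelium are given as counts and medians. For symbols with more than 1 entry, that with the largest total over all libraries was used. Changes are log2 ratios with a pseudocount of 1, less the median of all symbols, and 2-fold was the limit for a call. The value of 1 read was recovered from the way in which rounding makes some whole numbers more frequent than their neighbours. With no whole number missing, 1 read was worth no more than 1 in the other libraries, so intervals there are the widest possible. Intervals are exact Poisson, or exact binomial (Clopper-Pearson) for ratios. The steps were tested on simulated data. The RefSeq positions used by the authors are not in the table, so sequence windows are around the annotated start. Alternatives were another pseudocount, no centring, equal library totals, other fold limits, other background limits, the mean over entries and other distances. Calculations were done in Python 3.11.15 (scipy 1.17.1, numpy 2.4.6, pandas 2.3.3) and plots with matplotlib 3.10.9.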

Additional observations from a re-analysis of the deposited data

How the results depend on the processing

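With 1 library for each mark and stage, counting error is the only error known, and neither animals nor preparations were repeated. No paired analysis was possible because no condition had a second library. The numbers of genes above background were within 1.5 times the reported ones in all 24 alternatives. Of 128 alternatives for the numbers of genes past 2-fold, 85 were within 1.5 times the reported number and 43 were not. The shares of all symbols given with the results belong to the main setting and were not counted for the alternatives. The reference of symbols with H3K27me3 of 100 or more at E17.5 was added after seeing the data. Where only symbols above background were used, those under the limit in both libraries were left out and the median was taken anew over the rest, so these numbers change through both.

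For H3K4me2 from E17.5 to PN1, 2 genes were lower without centring and 2 at a limit of 1.5-fold (reported 0). From PN1 to PN7 the 3 higher genes became 1 without centring, 1 with equal library totals, 0 relative to high-H3K27me3 symbols, 1 at 3-fold, 5 at 1.5-fold and 1 when only symbols above background were used. The 1 lower gene became 0 with a pseudocount of 5, 2 without centring, 2 relative to high-H3K27me3 symbols, 0 at 3-fold and 0 with symbols above background. From PN7 to PN15 the 8 lower genes became 3 without centring, 3 relative to high-H3K27me3 symbols and 5 at 3-fold. From E17.5 to PN15 the 7 lower genes became 4 at 3-fold, and the other alternatives stayed within 1.5 times.

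For H3K27me3 from E17.5 to PN1, 2 genes were higher at 1.5-fold (reported 0) and 0 lower with symbols above background (reported 1). From PN1 to PN7 the 1 higher gene became 0 with a pseudocount of 5, without centring, at 3-fold and with symbols above background, and 2 with equal totals, relative to high-H3K27me3 symbols and at 1.5-fold. From PN7 to PN15 the 3 lower genes became 0 with equal totals, relative to high-H3K27me3 symbols, at 3-fold and with symbols above background, and 8 at 1.5-fold, while 1 was higher with equal totals, 2 relative to high-H3K27me3 symbols and 1 at 1.5-fold. From E17.5 to PN15 the 4 lower genes became 1 with equal totals, 0 relative to high-H3K27me3 symbols, 1 at 3-fold, 7 at 1.5-fold and 1 with symbols above background, while 2 were higher with equal totals, 3 relative to high-H3K27me3 symbols, 1 at 1.5-fold and 1 with symbols above background.

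The median H3K27me3 change from E17.5 to PN15, reported as −0.69, was −0.16 with equal totals and 0.46 relative to high-H3K27me3 symbols. Relative to those symbols the changes of 6 genes turned positive, namely Nefm (0.57), Pou4f1 (0.48), Pou4f2 (0.45), Pou4f3 (0.12), Isl1 (0.029) and Nefl (0.019). The counting intervals of Pou4f3 (−1.27 to −0.82), Isl1 (−1.42 to −0.85) and Nefl (−1.46 to −0.84) held the median of those symbols, −1.16. Their positive sign thus lay within counting error. Of the 30 nearest symbols, 5 were shared when likeness was taken as correlation and 9 with the values as deposited.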

Other observations

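Some genes of the lists, picked after their values were seen, are given here with their values. Sox11, a factor of immature neurons, had little H3K27me3 at E17.5 and PN1 (5 and 3) and more at PN7 and PN15 (23 and 56), while its H3K4me2 was 76, 73, 140 and 87. Atoh7, the bHLH factor that makes progenitors able to form ganglion cells, had 97, 120, 66 and 24 for H3K27me3 and 63, 42, 41 and 33 for H3K4me2, so both marks were lowest at PN15. The median H3K4me2 at PN15 was 13.5 over 4 astrocyte genes, of which Gfap was at 54, 4.5 over 4 vessel genes, of which Kdr was at 70, and 4 over 4 pigment epithelium genes, of which Dct was at 24.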
